A study of Plutella xylostella with 6 samples.

Results

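A set of 10 genes described as mucins, PxMucin left out, was followed in whole second-instar larvae of the diamondback moth, Plutella xylostella, by sequencing of poly(A) RNA. They are LOC105382233, LOC105387935, LOC105384167, LOC105392527, LOC105394481, LOC105390728, LOC105381725, LOC105388631, LOC105394621 and LOC105386540, taken by gene name, and they are carried by 13 of the 21946 rows of the deposited expression table. The set was chosen with earlier results of these data known. It does not hold every mucin of the table, where 20 further rows are described as mucins. In 3 of the genes a second, short assembled row bears the same name, and the values below are those of the row that carries the description. The libraries were 3 of larvae treated for 12 hr with DMNT, a terpene volatile that plants give off, and 3 of control larvae collected at the same time. Paraffin oil was the control in the feeding assays of the study, and its methods set 1 DMNT dose for its bioassays except dose tests, with no separate statement for the sequenced larvae. No source used here states how many larvae made up a library, and the p-values therefore cover the spread between these samples alone, which may be technical. Total counts were 39853422 to 54671573 in the DMNT libraries and 49553028 to 56381123 in the control libraries. A gene with no count could hold up to 3 counts, or 0.0523 to 0.0782 CPM (counts scaled to library size) depending on the library, by counting error alone, and every one of the 10 genes stood far above that limit in every library.

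Mucins are long secreted or membrane-bound proteins with stretches rich in serine, threonine and proline, and chains of O-linked sugars on these residues make them stiff and water-holding. In the insect midgut, intestinal mucins with chitin-binding domains cross-link chitin fibrils into the peritrophic matrix, the sleeve that separates food and microbes from the epithelium. PxMucin (LOC105381635), itself described as mucin-2-like, is the mucin studied as a component of that matrix in this moth. The name mucin in an automatic annotation rests on resemblance to such repeats, and genes so named need not act in the gut.

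By the deposited annotation, chitin terms were carried by 2 of the 10 genes. LOC105390728 (mucin-5AC) carries chitinase activity and chitin binding and shares its KEGG orthology term with PxMucin, and LOC105394621 (mucin-4-like) carries chitin binding and an extracellular location. The others are annotated differently. LOC105381725 and LOC105386540 (both mucin-17-like) share one orthology term and are placed in chromatin-remodelling complexes of the nucleus, LOC105388631 (mucin-5AC) is placed with the protein tyrosine phosphatases, LOC105394481 (mucin-17) with serine-type endopeptidases, and LOC105382233 (mucin-22-like) has the term protein binding and the KEGG pathways of pancreatic secretion and of protein digestion and absorption. LOC105387935 (mucin-19-like), LOC105384167 (mucin-2-like) and LOC105392527 (mucin-5AC-like) carry no term. The group is therefore held together by the word mucin in the descriptions, and none of these terms names the peritrophic matrix, since chitin is found in cuticle and trachea as well. As PxMucin and LOC105384167 share a description, and several of the other genes do so among themselves, related genes may share reads.

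The 10 genes spanned a wide range of levels, and a pair of them made up most of the total. In FPKM, fragments scaled by exon length and by the mapped total so that genes can be set side by side, the means over all 6 libraries ran from 96.7 for LOC105382233 to 1.07 for LOC105386540. LOC105382233 held 43.0% of the summed mean FPKM of the group and LOC105387935 held 33.2%. The next genes were LOC105384167 with 6.91%, LOC105392527 with 5.14%, LOC105394481 with 3.93% and LOC105390728 with 3.19%. LOC105381725, LOC105388631, LOC105394621 and LOC105386540 held 2.02%, 1.52%, 0.684% and 0.473%. Among all rows of the table the mean level of LOC105382233 lay at percentile 96.4 and that of LOC105386540 at percentile 28.6. Neighbours in this order had separate ranges over the 6 libraries only between LOC105387935 and LOC105384167, LOC105390728 and LOC105381725, and LOC105388631 and LOC105394621. Library by library, LOC105381725 nonetheless stood above LOC105388631 in all 6. The other neighbours with overlapping ranges changed order between libraries, so their order is not resolved.

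**Figure D1:**
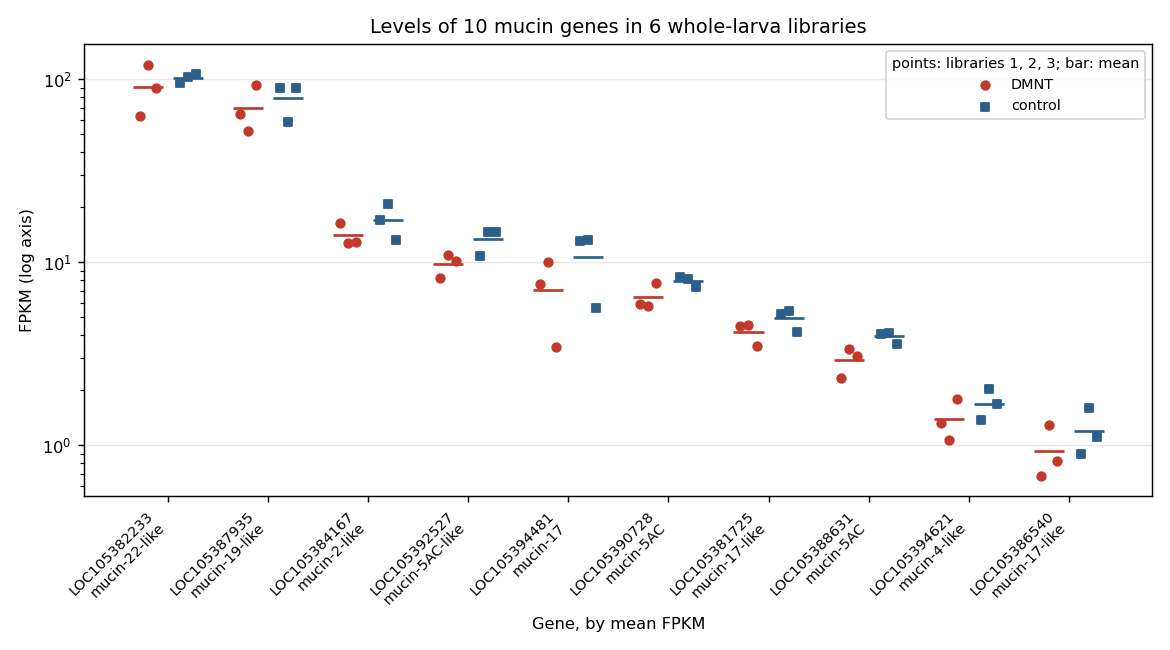
FPKM of the 10 mucin genes on a log axis, with DMNT libraries as red circles to the left and control libraries as blue squares to the right of each gene, and the group mean as a bar. LOC105382233 and LOC105387935 stand apart with means of 96.7 and 74.6 FPKM, and only in LOC105388631 do all DMNT points lie below all control points.

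LOC105382233, described as mucin-22-like, was at 62.96, 120.6 and 89.94 FPKM in DMNT replicates 1 to 3 and at 96.17, 103.3 and 107.0 FPKM in control replicates 1 to 3. The highest and the lowest of the 6 values both came from DMNT libraries, and the groups overlapped. LOC105387935, described as mucin-19-like, was at 65.0, 52.05 and 93.33 FPKM in the DMNT libraries and at 89.28, 58.45 and 89.56 FPKM in the control libraries. Here replicate 2 was the lowest library of both groups, and the groups again overlapped. The order of the pair changed between libraries. LOC105387935 was the higher of them in DMNT replicates 1 and 3, and LOC105382233 was the higher in the other 4 libraries. The ratio of LOC105382233 to LOC105387935 was 0.969, 2.32 and 0.964 in the DMNT libraries and 1.08, 1.77 and 1.20 in the control libraries. Jointly they made up 73.1% to 80.9% of the group's FPKM in the DMNT libraries and 69.8% to 79.3% in the control libraries.

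The order also depended on the scaling by length. Counts without that scaling gave LOC105382233 only 23.7% of the group's counts and LOC105387935 38.3%. Lengths implied by the ratio of count to FPKM ran from 2.18 kb for LOC105382233 to 11.5 kb for LOC105390728, with 4.64 kb for LOC105387935. These lengths follow from the deposited values and were not read from a gene model.

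Both genes annotated as chitin-binding were much less abundant than the leading pair. LOC105390728 was at 5.91, 5.77 and 7.70 FPKM in the DMNT libraries and at 8.34, 8.06 and 7.33 FPKM in the control libraries. DMNT replicates 1 and 2 were the lowest, and DMNT replicate 3 lay within the control range. LOC105394621 was at 1.32, 1.07 and 1.78 FPKM in the DMNT libraries and at 1.37, 2.02 and 1.67 FPKM in the control libraries, with the groups overlapping. PxMucin, measured in the same libraries, was at 14.48, 20.59 and 19.54 FPKM with DMNT and at 17.25, 24.09 and 24.95 FPKM in the control. LOC105390728 thus stood at 0.280 to 0.484 of the level of PxMucin over the 6 libraries and LOC105394621 at 0.0520 to 0.0912 of it. LOC105382233 and LOC105387935 were the only 2 of the 10 genes above PxMucin in every library, at 4.29 to 5.86 and 2.43 to 5.18 times its level.

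LOC105384167, the mucin-2-like gene that shares its description with PxMucin, was at 16.50, 12.76 and 12.90 FPKM in the DMNT libraries and at 16.98, 20.94 and 13.25 FPKM in the control libraries. DMNT replicate 1 lay between control replicates 3 and 1, so the groups overlapped. LOC105392527 (mucin-5AC-like) was at 8.24, 10.95 and 10.16 FPKM with DMNT and at 10.82, 14.68 and 14.57 FPKM in the control. Its 3 DMNT libraries were all below the control mean, but DMNT replicate 2 slightly exceeded control replicate 1 and the groups overlapped. LOC105394481 (mucin-17) was the most variable of the 10 genes, at 7.64, 10.03 and 3.44 FPKM with DMNT and at 13.05, 13.21 and 5.64 FPKM in the control. Its replicate 3 was the lowest library of both groups, and the highest library had 3.57 times the CPM of the lowest.

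Of the genes whose annotation points to the nucleus or to a phosphatase, LOC105381725 was at 4.48, 4.52 and 3.47 FPKM in the DMNT libraries and at 5.24, 5.40 and 4.18 FPKM in the control libraries. As for LOC105394481, replicate 3 was the lowest library of both groups, and the groups overlapped. LOC105386540, which shares its orthology term, was at 0.68, 1.29 and 0.82 FPKM with DMNT and at 0.90, 1.59 and 1.11 FPKM in the control, highest in replicate 2 of both groups. LOC105388631 was at 2.32, 3.35 and 3.06 FPKM with DMNT and at 4.08, 4.13 and 3.59 FPKM in the control. It was the only one of the 10 genes in which the groups did not overlap, with every DMNT library below every control library. Over all 17709 rows tested, the groups did not overlap in 8.37%, and they did so with DMNT lower in 4.12%, so 1 of 10 is near the background.

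To ask whether 12 hr of DMNT altered the levels of these genes, the counts were tested with edgeR's quasi-likelihood test across the 17709 rows with a mean FPKM of at least 0.5, which included all 10 genes, and a gene was called where it passed both thresholds of the study, a change of 1 or more on the log2 scale in either direction and an unadjusted p under 0.05. Of the 10 mucin genes, 0 were called, where 0.87% of all rows were (154 of 17709). An unadjusted p under 0.05 was reached by 0 of the 10 in edgeR, in DESeq2 and in limma, and by edgeR the Benjamini-Hochberg adjusted p was 0.9999 for each. The log2 fold change was below 0 in 10 of 10, between -0.54 and -0.12 with a median of -0.23, beside a median of -0.003 over all rows, of which 50.6% were below 0. The 10 genes were chosen with earlier results of these data known. Of the 13 tested mucin rows beside them and PxMucin, 4 were below 0 and 9 above it, with a median of 0.03. In bulk RNA of the whole body, fewer cells of a type and less RNA per cell cannot be told apart.

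The smallest p belonged to LOC105392527, which averaged 88.1 ± 12.4 CPM in the DMNT libraries and 116.5 ± 20.4 CPM in the control libraries (SD, n = 3 each). On the log2 scale the difference was -0.40 with a standard error of 0.18 and a 95% interval of -0.81 to 0.004 (unadjusted p = 0.0520 by edgeR's quasi-likelihood test). LOC105388631 followed, with 15.1 ± 2.74 CPM in the DMNT libraries and 19.8 ± 0.702 CPM in the control libraries (SD, n = 3 each). Its difference was -0.38 on the log2 scale with a standard error of 0.18 and an interval of -0.80 to 0.03 (unadjusted p = 0.0658 by edgeR). The interval of neither gene reached the threshold of -1, and neither unadjusted p was under 0.05 by edgeR.

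The remaining genes were further from a call. LOC105394481 had a log2 fold change of -0.54 and the widest interval of the 10, -1.48 to 0.40 (standard error 0.41, unadjusted p = 0.224 by edgeR). Its estimate was -0.86 without DMNT replicate 2 and -0.22 without DMNT replicate 3. LOC105386540 was at -0.32 (standard error 0.29), LOC105390728 at -0.24 (0.16), LOC105394621 at -0.22 (0.25), LOC105384167 at -0.22 (0.18) and LOC105381725 at -0.20 (0.15) on the log2 scale. The abundant pair lay closest to 0, LOC105387935 at -0.13 with an interval of -0.76 to 0.50, and LOC105382233 at -0.12 with an interval of -0.63 to 0.39. The direction of both changed when single libraries were left out. Without DMNT replicate 1 the log2 fold change of LOC105382233 was 0.088, and that of LOC105387935 was 0.057 without DMNT replicate 2 and 0.010 without control replicate 3. PxMucin was at -0.23 in the same fit (standard error 0.21, unadjusted p = 0.287 by edgeR).

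**Figure D2:**
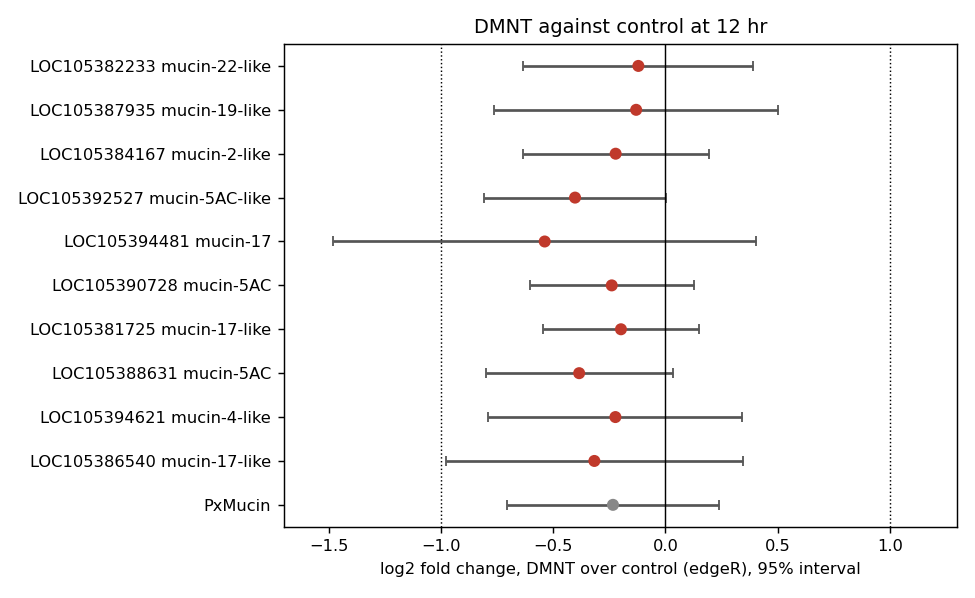
Log2 fold change of each gene, DMNT over control, from edgeR's quasi-likelihood fit, with 95% intervals over 3 libraries a group; dotted lines mark the fold threshold of the study and PxMucin is shown in grey. All 10 mucin estimates lie between -0.54 and -0.12, every interval includes 0, and only that of LOC105394481 extends beyond -1.

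Counted by library rather than by mean, the lowest CPM fell in a DMNT library for 10 of 10 genes, as it did for 51.7% of all rows tested, and the highest in a control library for 8 of 10, as for 49.4% of all rows. The lowest was DMNT replicate 1 for 4 genes, DMNT replicate 2 for 4 and DMNT replicate 3 for 2, so it was not one library that lay low throughout. The summed FPKM of the group was 175.1, 222.4 and 226.6 in the DMNT libraries and 246.2, 231.8 and 247.9 in the control libraries. In FPKM these sums did not overlap. In CPM, which is not scaled by length, they overlapped, at 733.0, 818.4 and 959.7 with DMNT and 981.8, 864.8 and 1036 in the control. The genes were chosen with results of these data known, and no test was made of a sum. Most of each FPKM sum came from LOC105382233 and LOC105387935. Without that pair the sums were 47.1, 49.7 and 43.3 FPKM with DMNT and 60.8, 70.0 and 51.3 FPKM in the control. These smaller FPKM sums did not overlap either, and they were not tested.

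**Figure D3:**
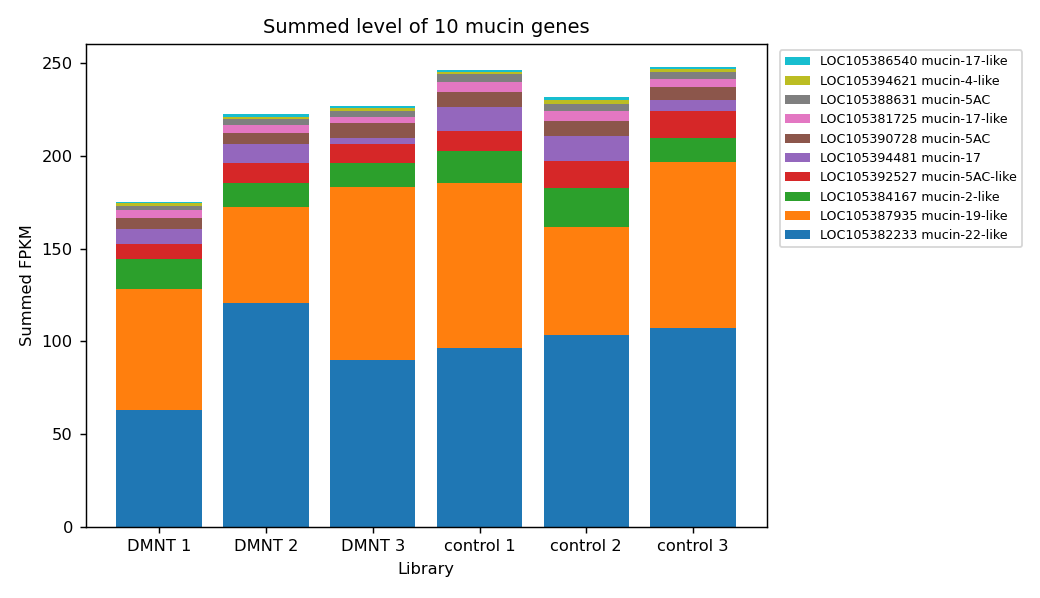
FPKM of the 10 mucin genes stacked for each library, DMNT libraries on the left and control libraries on the right. The 2 lowest segments, LOC105382233 and LOC105387935, hold 69.8% to 80.9% of each bar, and the bars reach 175.1 to 226.6 in the DMNT libraries and 231.8 to 247.9 in the control libraries.

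Other rows described as mucins had estimates on both sides of 0. The word mucin occurred in 31 rows of the table, of which the 10 genes held 23.1% of the summed mean FPKM. Beside the 10 genes and PxMucin there were 20 such rows, of which 13 passed the filter and 7 did not, those 7 having a mean of at most 0.248 FPKM. Of the 13 tested, 4 were lower and 9 higher in the DMNT libraries by estimate, with a median log2 fold change of 0.03, and 0 passed the thresholds or an unadjusted p of 0.05 by edgeR. They included LOC105394905, a mucin-19-like gene with the highest mean of any mucin row (358.6 FPKM), at 0.03 (standard error 0.22) on the log2 scale, and the mucin-19-like LOC105382264 (96.1 FPKM) at 0.14 (standard error 0.13). LOC105398792 (mucin-1-like, 42.9 FPKM) was at 0.44 (standard error 0.29). A row that joins a mucin-19-like gene with a cuticle protein (LOC105391292 and LOC105391271) was at 0.70 (standard error 0.35). Another joins an RNA polymerase subunit with an integumentary mucin C.1-like gene (LOC105382386 and LOC105382389), at -0.10 (standard error 0.17). Reads of these joined rows cannot be assigned to a single gene.

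The sugars of mucins are started by N-acetylgalactosaminyltransferases, which attach the first residue to serine or threonine in the Golgi. Of 32 rows chosen by such words in the description, 21 were tested and 0 passed the thresholds or an unadjusted p of 0.05 by edgeR, with 7 below 0 and 14 above it and a median log2 fold change of 0.11. The list also holds beta-1,4-N-acetylgalactosaminyltransferases, which build other glycans. LOC105381604, described as polypeptide N-acetylgalactosaminyltransferase 35A, had the smallest p, with 0.902, 1.32 and 1.10 CPM in the DMNT libraries and 1.38, 3.31 and 1.56 CPM in the control libraries. Every DMNT library was below every control library, at -0.91 on the log2 scale (standard error 0.40, unadjusted p = 0.0537 by edgeR). LOC105384984, a polypeptide N-acetylgalactosaminyltransferase 2-like gene, was at -0.48 (standard error 0.23) and LOC105398071, a bre-4-like gene of the second kind, at 0.46 (standard error 0.26). A further list held rows described as peritrophins, chitin-binding partners of mucins in the matrix, or as chondroitin proteoglycans. Of its 4 tested rows 0 were called, 2 were below 0 and 2 above it, and the median was -0.04. LOC105380712, described as chondroitin proteoglycan-2-like, was among those below 0 (-0.096).

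The genes did not all vary alike between libraries. Over the 6 libraries, the Pearson correlation of log2 CPM was above 0 in 32 of the 45 pairs and below 0 in 13, with a median of 0.17 and a range of -0.61 to 0.96. In 1 pair the exact two-sided permutation p was under 0.05, and after Benjamini-Hochberg adjustment over the 45 pairs 0 were. With 720 pairings of 6 libraries the smallest possible exact p is 0.00139, so a single pair cannot go below 0.0625 after that adjustment, and the count of 0 says little. The lowest r was that of LOC105387935 with LOC105394481 (exact permutation p = 0.203, adjusted 0.760).

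**Figure D4:**
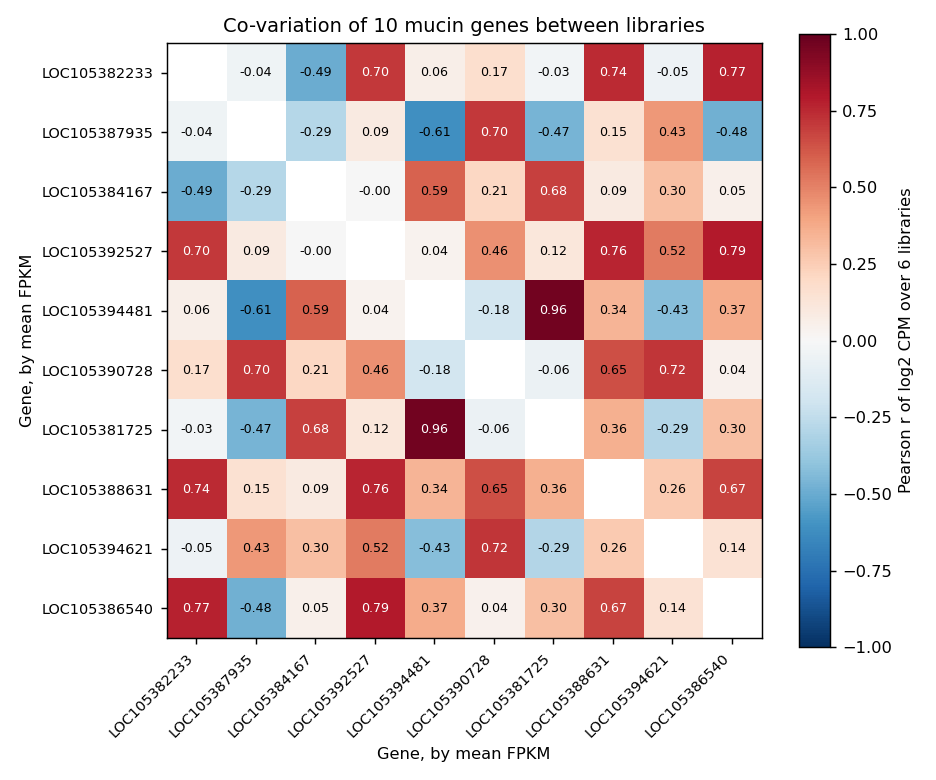
Pearson r of log2 CPM over the 6 libraries for each pair of the 10 mucin genes, which run from highest to lowest mean FPKM on both axes, red for positive and blue for negative. The pair LOC105394481 and LOC105381725 has the highest value (0.96), and the values range down to -0.61.

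The closest pair was LOC105394481 (mucin-17) and LOC105381725 (mucin-17-like). In CPM, LOC105394481 was at 30.1, 38.97 and 13.95 with DMNT and at 49.8, 48.0 and 22.8 in the control, and LOC105381725 was at 45.8, 45.6 and 36.5 with DMNT and at 51.9, 50.9 and 43.9 in the control. Both were lowest in replicate 3 of either group, and the swing of LOC105394481 was the larger. Over 6 libraries r was 0.96 (exact permutation p = 0.00417, 0.188 after Benjamini-Hochberg adjustment) and Spearman's rho was 0.94 (exact permutation p = 0.0167, adjusted 0.656). Without the 2 libraries farthest from the median, DMNT replicate 3 and control replicate 3, r was 0.88, and it was 0.98 with each group centred on its own mean. The genes carry different annotation, an endopeptidase and a chromatin protein. LOC105386540, which shares the orthology term of LOC105381725, had an r of 0.30 with it (exact permutation p = 0.571).

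Set beside PxMucin, the gene that moved most closely with it was LOC105392527. LOC105392527 was at 73.9, 96.8 and 93.6 CPM with DMNT and at 94.0, 121.4 and 134.0 CPM in the control, and its ratio to PxMucin in FPKM stayed within 0.520 to 0.569 with DMNT and 0.584 to 0.627 in the control. Both genes were lowest in DMNT replicate 1 and highest in control replicate 3. Over 6 libraries r was 0.94 (exact permutation p = 0.0125, 0.125 after Benjamini-Hochberg adjustment over 10 relations) and rho was 0.94 (exact permutation p = 0.0167, adjusted 0.167), and without DMNT replicate 1 and control replicate 3 r was 0.70. LOC105382233 (r = 0.78) and LOC105386540 (r = 0.77) came next, with adjusted exact permutation p = 0.231 each. For LOC105382233 the relation rested on those libraries, since r was 0.22 without them. LOC105390728, which shares the chitinase term with PxMucin, had an r of 0.33 with it, and the mucin-2-like LOC105384167 one of -0.28.

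**Figure D5:**
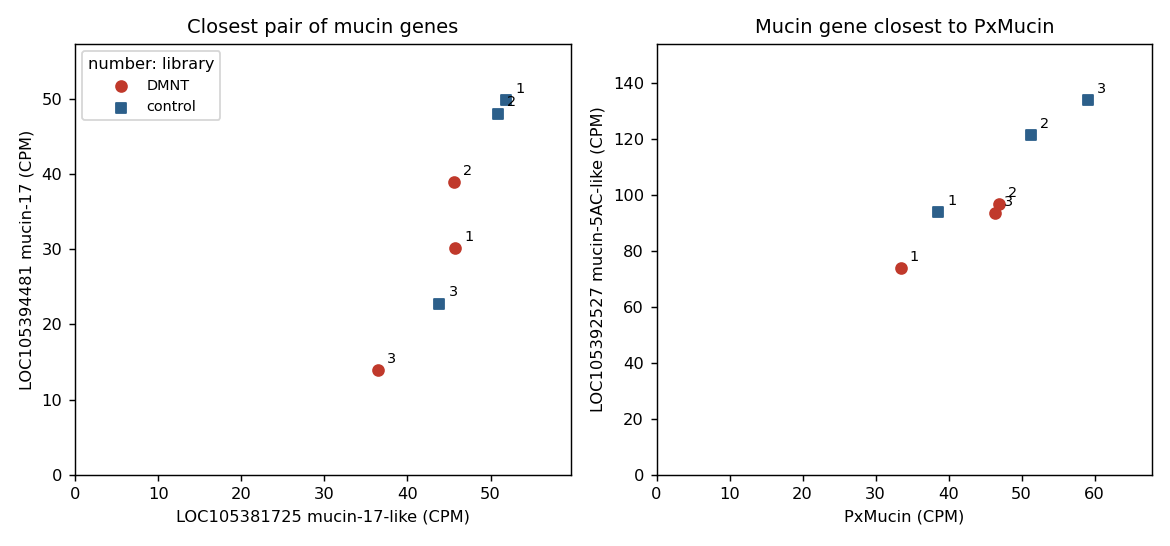
CPM of LOC105394481 against LOC105381725 (left) and of LOC105392527 against PxMucin (right), with DMNT libraries as red circles, control libraries as blue squares and the replicate number beside each point; both axes start at 0. On the left replicate 3 is the lowest of each group, and on the right DMNT replicate 1 is the lowest and control replicate 3 the highest point.

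As a description of likeness, each gene was set against every described row outside the group, by Pearson r of log2 CPM over the 6 libraries. Of all 17709 rows tested, 60 (LOC105394621) to 284 (LOC105394481) had an r of at least 0.9, which is 0.339% to 1.60%. A high r over 6 libraries therefore does not single out 1 partner. The nearest gene was the aquaporin AQPAn.G (LOC105386557), a water channel, for LOC105392527 (r = 0.98). It was a glucose dehydrogenase (LOC105388388) for LOC105387935 (r = 0.99), and a proton-coupled amino acid transporter 4-like gene (LOC105395779) for LOC105390728 (r = 0.99). LOC105382233 was nearest to an alpha-tocopherol transfer protein-like gene (LOC105388389, r = 0.99) that stood below 1 CPM in every library. Genes of the cell interior were nearest to several others, among them the SURP and G-patch domain protein LOC105395908 for LOC105394481 (r = 0.99), the cyclin-dependent kinase 14-like LOC105386248 for LOC105381725 (r = 0.996), the iron-sulfur cluster assembly factor NUBP1 (LOC105382608) for LOC105388631 (r = 0.996) and the ubiquitin-like modifier-activating enzyme 5 (LOC105395037) for LOC105386540 (r = 0.997). LOC105384167 was nearest to the ras-related growth inhibitor-like LOC105391504 (r = 0.996) and LOC105394621 to the unc-112-related LOC105397148 (r = 0.98). These genes were picked for their likeness, so no test is given.

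The summed levels of tissue marker rows varied between libraries. The midgut list was 333 rows with trypsin, chymotrypsin, aminopeptidase N, carboxypeptidase, alpha-amylase or lipase in the description. These words were not restricted to digestive genes. Its summed CPM was 32190 to 33750 in the DMNT libraries and 29660 to 31630 in the control libraries. In this sum every DMNT library lay above every control library. The single rows of the list did not share that direction. Among the 230 that were tested, 119 estimates were positive and 111 negative, and the median was 0.013 on the log2 scale. Past the thresholds, 0 of these rows were higher and 3 were lower with DMNT. Sums for silk gland (7 rows), haemocyte (14 rows), fat body (27 rows), cuticle (106 rows) and trachea or foregut (3 rows) overlapped between the groups. The fat body sum varied most, with 7448, 11950 and 2291 CPM in the DMNT libraries and 4130, 8929 and 5916 CPM in the control libraries. LOC105387935 ran against it, lowest where the storage and carrier proteins of the fat body were highest (r = -0.88, exact permutation p = 0.0167, 0.472 after Benjamini-Hochberg adjustment, rho = -0.94, r = -0.85 without DMNT replicates 2 and 3). LOC105394481 ran with the haemocyte sum (r = 0.88, exact permutation p = 0.0236, adjusted 0.472, rho = 0.83, r = 0.78 without DMNT replicate 3 and control replicate 2), which was 217 to 304 CPM in the DMNT libraries and 242 to 336 CPM in the control libraries. The tracheal and foregut sum, 26.5 to 56.2 CPM with DMNT and 45.4 to 70.0 CPM in the control, ran with LOC105386540 (r = 0.92, exact permutation p = 0.00972, adjusted 0.472, rho = 0.94, r = 0.71 without DMNT replicate 1 and control replicate 2). Of the 60 relations of 10 genes with 6 tissue sums, 4 had an unadjusted exact permutation p under 0.05 and 0 an adjusted one. As 720 pairings allow no exact permutation p below 0.00139, a single relation alone could not pass that adjustment. The count of 0 therefore says little here too. The part of tissue make-up in the mucin values was not tested.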

How the data were processed

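Per the methods, the authors trimmed reads with cutadapt, mapped them by Hisat onto the species' NCBI reference and used StringTie to assemble and quantify genes, with versions that the sources used here do not state. The deposited counts are raw whole numbers. Libraries were stranded by dUTP, but no source used here states whether counting used strand, so overlapping genes can share reads. For FPKM the authors divided by exon length and by the mapped total. All 12 value columns were read. Gene names and descriptions are the authors' annotation, and 8 of the 10 genes occur in a newer NCBI annotation. No sequence or coordinate is given.

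Samples were grouped by title. A minimum mean of 0.5 FPKM left 17709 of 21946 rows. Counts were scaled by TMM, CPM are on that scale, and edgeR 4.0.16 (glmQLFit, glmQLFTest) in R 4.3.3 was fitted with no covariate, with Benjamini-Hochberg adjustment over all rows. The biological coefficient of variation was 29.0%. Standard errors were taken as the absolute log2 fold change over the square root of F. The fit was tested on simulated data. Correlations used log2 CPM with a prior count of 0.5 and exact two-sided permutation tests over all pairings of the 6 libraries (scipy 1.17.1).

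The named genes are the 10 genes, PxMucin, for each gene the described row of highest r, the 3 glycosylation rows of smallest p, and other rows described as mucins. The members and lists were chosen with earlier results of these data known, and the relations with tissue sums were added after seeing the data. Alternatives were other scalings, DESeq2 1.42.0, limma 3.58.1 on log2(FPKM + 0.1) and log2(FPKM + 1), other filters, summed rows, a replicate block and leaving out each library.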

Additional observations from a re-analysis of the deposited data

How the results depend on the processing

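Of the 10 mucin genes 0 were called under each of the 15 alternatives, and 147 of the 150 log2 fold changes they gave were below 0. The exceptions were LOC105382233 without DMNT replicate 1 (0.088) and LOC105387935 without DMNT replicate 2 (0.057) and without control replicate 3 (0.010), and the cause was not tested. With 1 library left out the ranges were -0.35 to 0.088 for LOC105382233 and -0.41 to 0.057 for LOC105387935. They were -0.86 to -0.22 for LOC105394481, -0.61 to -0.12 for LOC105386540, -0.46 to -0.048 for LOC105394621, -0.35 to -0.095 for LOC105384167, -0.40 to -0.15 for LOC105390728, -0.27 to -0.098 for LOC105381725, -0.54 to -0.29 for LOC105392527 and -0.48 to -0.24 for LOC105388631. Over all rows, 154 passed the thresholds, against 82 with limma on log2(FPKM + 1), 240 with no filter, where more rows are tested, and 162 to 271 with 1 library left out. It was 271 without DMNT replicate 2, 259 without control replicate 2 and 238 without control replicate 3. LOC105382233 held 43.0% of the group's FPKM and 23.7% of its raw counts, which are not per length, and 40.7% to 44.0% of the FPKM with 1 library left out. Other ways of computing the pairs also gave 0 with an adjusted p under 0.05, a count that 6 libraries nearly fix.

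Nothing in the labels ties libraries of one number. Deviations from the group means correlated at 0.0415 to 0.0604 between same-numbered libraries and at -0.0662 to 0.0155 between the others, so each library correlated best with its own number, weakly, which is a hint from the data and not from the design. With a replicate block edgeR called 178 rows and 0 mucin genes. By edgeR with that block the unadjusted p = 0.0117 for LOC105392527 and 0.00892 for LOC105394481. The Benjamini-Hochberg adjusted p was 0.911 for each, and 0 of all rows had an adjusted p under 0.05 in that fit. An unadjusted p under 0.05 was also given by edgeR to LOC105390728 without DMNT replicate 3 and to LOC105392527 without control replicate 1.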

Other observations

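The second, short rows that carry the names of 3 of the genes were assembled loci with no description. That of LOC105382233 had 138, 127 and 86 counts in the DMNT libraries and 150, 153 and 154 counts in the control libraries, a difference of -0.18 on the log2 scale (standard error 0.22 by edgeR). That of LOC105390728 had 41, 33 and 27 counts in the DMNT libraries and 83, 74 and 19 counts in the control libraries (-0.56, standard error 0.54). That of LOC105387935 had 18, 23 and 51 counts in the DMNT libraries and 0, 0 and 41 counts in the control libraries (1.41, standard error 1.41). Counts of this size are small beside those of the main rows, and with rows of one name summed before the fit 0 of the 10 genes passed the thresholds.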
